A study of Mus musculus with 4 samples.

Results

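NRF2, encoded by Nfe2l2, is the transcription factor that switches on genes of glutathione and thioredoxin metabolism, and the genes described here are Nfe2l2, its repressor Keap1 and 8 of the direct target genes of this pathway: Gclc, Gclm, Gss, Gsr, Txnrd1, Srxn1, Nqo1 and Slc7a11. These 10 genes are a list of names taken from the 48709 genes counted in mouse liver, with no threshold on their values, and all 10 were found in the counts. Of them, 9 passed the filter on low counts, which kept 13699 genes, and Slc7a11 did not. The enzymes that supply NADPH were kept apart from the 10 genes and are described after them.

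KEAP1 holds NRF2 in the cytoplasm and presents it for degradation, and oxidants or electrophiles that modify cysteines of KEAP1 let NRF2 reach the nucleus. There NRF2 pairs with a small MAF protein on the antioxidant response element, a short DNA motif near the genes of glutathione synthesis, thioredoxin reduction and quinone detoxification. NRF1, encoded by Nfe2l1, binds a closely related element, and DDI2 is the aspartic protease that cleaves NRF1 into its active form. Because NRF2 is controlled mainly at the protein level, the RNA of its target genes is commonly read as a measure of its activity in liver.

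The liver RNA came from untreated young adult C57BL/6 mice that all carried the floxed Ddi2 allele, 2 WT littermates without Cre and 2 mice with the genotype DDI2-/- (DDI2-KO), in which Cre was driven by the albumin promoter. That promoter is active in hepatocytes, so other cells of the liver may keep Ddi2. The study used males and females, and the labels do not give the sex of each mouse. In whole liver, fewer cells of a type and less RNA per cell cannot be told apart.

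The libraries held 22501208 to 34109018 reads on genes, and those labelled DDI2-KO were the shallower. Ddi2 itself had 141 and 123 CPM (counts per unit of library size after scaling) in WT and 157 and 164 CPM in the DDI2-KO libraries (log2 fold change 0.28 ± 0.17 (SE), adjusted p = 0.349 by edgeR). Cre removes the part of Ddi2 between the LoxP sites, and reads on that part were not counted apart from the rest of the gene, so this count does not check the genotype. DDI2-KO here means the libraries so labelled. The 8 hepatocyte markers were present at 163000 to 186600 CPM in sum in WT and 152700 to 156300 CPM in the DDI2-KO libraries. Reads outside annotated genes were 4.70 to 5.11% of the gene reads in WT and 2.53 to 3.65% in the DDI2-KO libraries, and the nuclear RNAs Malat1 and Neat1 were lower in the latter by 1.29 and 1.78 on the log2 scale (fold changes of 0.408 and 0.292, adjusted p = 0.0224 and 0.0438 from edgeR). Malat1 was called under all 14 alternative settings and Neat1 under 11, not with a replicate block (adjusted p = 0.0536), without WT library 1 (0.0559) or without DDI2-KO library 1 (0.0921). Whether these differences between the libraries play a part in the values given below was not tested.

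The core of the antioxidant response element was searched as TGACNNNGC on both strands of the RefSeq promoter windows of GRCm38.p6, which run from 250 bases before to 50 bases after each annotated start. The table holds windows of 8 of the 10 genes (not Gclc and Gsr), 10 windows in all, and the core was present in 4 of the 8 genes: Nfe2l2, Gclm, Txnrd1 and Srxn1. By window, it was present in 4 of the 10, and over all 32851 windows in the table in 12.4%. The stricter form TGACTCAGC, of the same length, whose first letters also make an AP-1 site, was in 0.454% of all windows and in none of the 8 genes. The looser form TGANNNNGC includes every match of both others. It was in 41.3% of all windows, in 7 of the 10 windows of these genes and in 6 of the 8 genes. The stretches below lie upstream of annotated starts of Nfe2l2, of the glutathione-making Gclm and of the thioredoxin-linked Txnrd1 and Srxn1. They are read 5′ to 3′ on the strand of the gene, with the match in capitals. The start used for Txnrd1 is an internal one, so its stretch lies inside the span of that gene given further below. The stretch of Nfe2l2 overlaps an annotated exon, and those of Gclm, Txnrd1 and Srxn1 do not. For Nfe2l2 the core begins at position -240 from the start, on the strand of the gene. For Gclm and Txnrd1 it begins at positions -134 and -92 and lies on the opposite strand. For Srxn1, whose match of the core lies after the start, the stretch shows a match of the looser form at position -45.
Nfe2l2, chr2:75704885-75704913, minus strand: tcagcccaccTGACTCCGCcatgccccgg
Gclm, chr3:122245398-122245456, plus strand: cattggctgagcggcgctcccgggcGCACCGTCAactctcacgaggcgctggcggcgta
Txnrd1, chr10:82859089-82859147, plus strand: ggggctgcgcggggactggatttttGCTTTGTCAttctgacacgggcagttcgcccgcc
Srxn1, chr2:152105454-152105512, plus strand: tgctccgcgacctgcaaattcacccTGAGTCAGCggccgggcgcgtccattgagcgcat
A match of these letters is a description of the sequence and not evidence of binding, and the absence of a match concerns these windows only.

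Between WT and the DDI2-KO libraries, the RNA of the 9 tested genes showed no difference that passed the test. Genes of the other lists that passed are given further below. Of the 9 genes tested, 0 had an adjusted p under 0.05 by edgeR's quasi-likelihood test, where 2.53% of all 13699 tested genes were called (346 genes, of which 182, or 1.33%, were higher in DDI2-KO and 164, or 1.20%, lower). An unadjusted p under 0.05 was found for 0 of the 9 and for 3216 of all tested genes. DESeq2, limma-voom and limma-trend also called 0 of the 9. The log2 fold changes (DDI2-KO over WT) ran from -0.39 for Keap1 to 0.32 for Srxn1, with 6 above 0 and 3 below, and their median was 0.03 beside -0.01 over all tested genes. The widest 95% interval was that of Gclc, from -0.90 to 0.73, or 0.535-fold to 1.66-fold, and the interval reaching highest was that of Nqo1, up to 0.76. With 2 libraries against 2, an exact permutation test of a single gene cannot give a p below 0.333, so none was run. The values of both libraries of a group did not overlap those of the other group in 5 of the 9 genes, 3 higher and 2 lower in the DDI2-KO libraries, or 55.6%, where 55.7% of all tested genes did not overlap (28.0% higher and 27.7% lower).

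**Figure D1:**
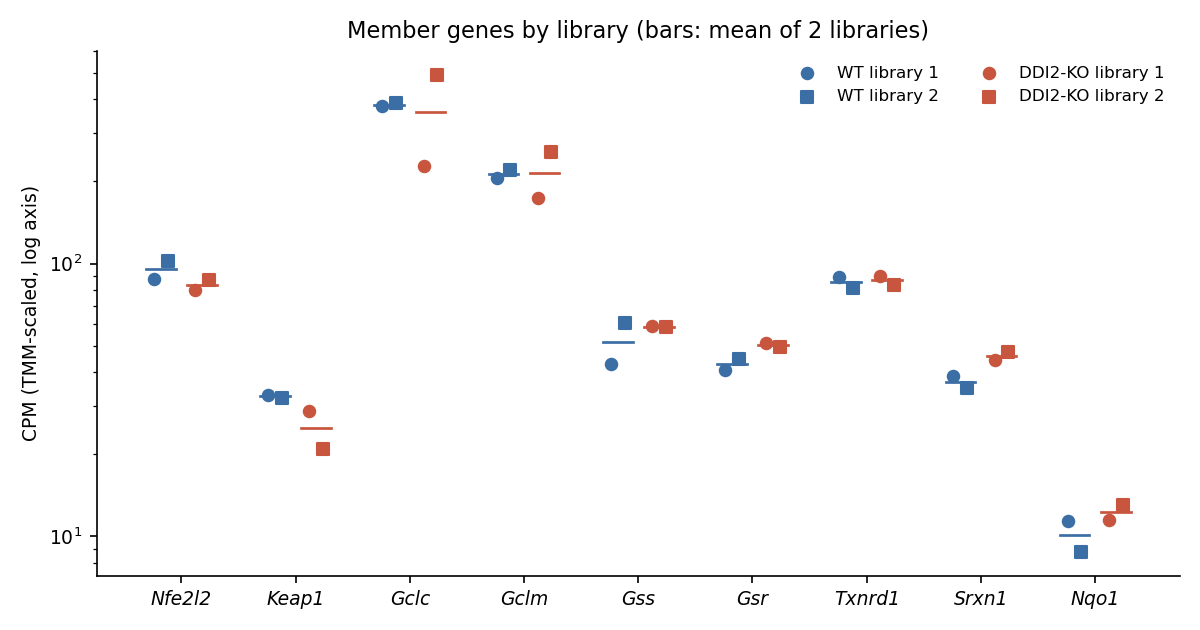
Level of the 9 tested genes in each library, in CPM on a log axis. Blue marks are the WT libraries and red marks the DDI2-KO libraries, circles for library 1 and squares for library 2, and bars give the mean of 2 libraries. The red marks of Gclc stand apart, at 228 and 493 CPM, on either side of the WT values.

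Per length, the genes covered a wide range in liver. In WT the mean level in CPM per kilobase of exon was 101.6 for Gclc, 33.8 for Gclm, 25.1 for Nfe2l2, 15.5 for Gsr, 13.1 for Srxn1, 12.1 for Txnrd1, 8.74 for Gss, 6.95 for Keap1 and 6.49 for Nqo1. In this order the neighbours Srxn1 and Txnrd1 overlapped between the WT libraries, and so did Keap1 and Nqo1, while the others did not. The order in the DDI2-KO libraries was the same except that Nqo1, at 7.91 CPM per kilobase, stood above Keap1, at 5.31. The length used was that of all annotated exons of a gene, merged over its transcripts. For Txnrd1 this was 7086 bases, where its longest transcript has 3622, and for Srxn1 it was 2820 against 2812. The order below Gclc can therefore depend on the length used.

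The regulators came first. Nfe2l2 (ENSMUSG00000015839, GRCm38 chr2:75675513-75704641, minus strand) had 87.9 and 102 CPM in WT and 80.2 and 87.2 CPM in the DDI2-KO libraries. The groups did not overlap, by a margin of less than 1 CPM, and the difference was smaller than that between the WT libraries. Its log2 fold change was -0.19 (SE, the standard error, 0.17, 95% interval -0.57 to 0.20, adjusted p = 0.547 from edgeR), and leaving out 1 library at a time moved it between -0.29 and -0.07.

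Keap1 (ENSMUSG00000003308, chr9:21229730-21239361, minus strand), the adaptor that presents NRF2 to the CUL3 ubiquitin ligase, had 33.0 and 32.3 CPM in WT and 28.9 and 20.9 CPM in the DDI2-KO libraries. Both of the latter were below both WT values, and they lay further from each other than the first of them lay from WT. The log2 fold change of -0.39, the lowest of the 9 genes, had a SE of 0.19 and a 95% interval from -0.83 to 0.05 (adjusted p = 0.261 from edgeR). It was -0.17 without DDI2-KO library 2 and -0.64 without DDI2-KO library 1, where the adjusted p of 0.0763 was the lowest that any of the 9 genes reached under the 14 alternative settings. The exons of Keap1 share 510 bases with the antisense gene Gm16754, which had at most 8 reads in any library.

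Glutathione is made from glutamate, cysteine and glycine by glutamate-cysteine ligase, whose catalytic subunit is GCLC and whose modifier subunit is GCLM, followed by glutathione synthetase, GSS. Gclc (ENSMUSG00000032350, chr9:77754535-77794485, plus strand), the most abundant of the 10 genes per length, had 377 and 388 CPM in WT and 228 and 493 CPM in the DDI2-KO libraries. The WT libraries lay close together and between the other 2, one of which was below and one above them. WT averaged 383 ± 7.50 CPM (SD, n = 2), and DDI2-KO averaged 360.2 ± 187 CPM (SD, n = 2). The log2 fold change was therefore near 0, at -0.09 with a SE of 0.34 (95% interval -0.90 to 0.73, adjusted p = 0.906 from edgeR). Its sign depended on single libraries: without DDI2-KO library 2 it was -0.74 (adjusted p = 0.0867), and without DDI2-KO library 1 it was 0.37 (adjusted p = 0.316).

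Within the DDI2-KO libraries, Gclc was 2.17-fold higher in library 2 than in library 1, a log2 ratio of 1.11 against 0.04 between the WT libraries. A gap as large was found in 47 of the 7380 genes that averaged 10 CPM or more, 20 of them higher in library 2 and 27 higher in library 1. Between the WT libraries, 100 of the 7380 genes had a gap of this size. The other genes of the lists used here among the 47 were Bhmt, the betaine-homocysteine methyltransferase, and Ugt1a6a, a glucuronosyltransferase.

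Gclm (ENSMUSG00000028124, chr3:122245557-122270732, plus strand) had 205 and 220 CPM in WT and 173 and 256 CPM in the DDI2-KO libraries. As for Gclc, the WT values lay between the other 2, with library 1 the lower and library 2 the higher of the pair. The gap within the DDI2-KO libraries was smaller than for Gclc, 1.48-fold or 0.56 on the log2 scale. The log2 fold change was 0.01 (SE 0.22, 95% interval -0.48 to 0.51, adjusted p = 0.978 from edgeR) and ranged from -0.29, without DDI2-KO library 2, to 0.27, without DDI2-KO library 1. Per length, Gclc exceeded Gclm by 3.07-fold and 2.94-fold in the WT libraries, and by 2.19-fold and 3.21-fold in the DDI2-KO libraries. The ratio was lowest in DDI2-KO library 1, the library in which both subunits were lowest.

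Gss (ENSMUSG00000027610, chr2:155563181-155592810, minus strand) had 42.9 and 60.5 CPM in WT and 58.9 and 58.5 CPM in the DDI2-KO libraries. Here the spread was in WT, and the 2 libraries labelled DDI2-KO were nearly equal and fell between the WT values. A log2 fold change of 0.18 was fitted (SE 0.19, 95% interval -0.26 to 0.62, adjusted p = 0.611 from edgeR), which became -0.04 without WT library 1 and 0.45 without WT library 2. Exons of Gss share 395 bases, 6.68% of their length, with Acss2 on the opposite strand, which had 304 and 367 CPM in WT and 661 and 368 CPM in the DDI2-KO libraries. The libraries were made with a stranded kit, but the strand setting of the counting is not given in the sources used here, so reads in the shared bases may not have been told apart.

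Glutathione disulfide is returned to glutathione by glutathione reductase, which uses NADPH. Its gene Gsr (ENSMUSG00000031584, chr8:33652523-33698163, plus strand) had 40.7 and 44.8 CPM in WT and 51.0 and 49.5 CPM in the DDI2-KO libraries. Both of the latter were above both WT values. The log2 fold change of 0.23 (SE 0.15, 95% interval -0.12 to 0.58, adjusted p = 0.391 from edgeR) was larger than the log2 ratio between libraries of a group, 0.14 in WT and -0.04 in the DDI2-KO libraries, and lay between 0.17 and 0.30 when any 1 library was left out.

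In the thioredoxin system, thioredoxin reductase 1 passes electrons from NADPH to thioredoxin, which serves the peroxiredoxins, and sulfiredoxin repairs peroxiredoxins whose active cysteine has been overoxidized. Txnrd1 (ENSMUSG00000020250, chr10:82833951-82897712, plus strand) had 89.4 and 81.3 CPM in WT and 90.1 and 83.6 CPM in the DDI2-KO libraries. The groups overlapped almost fully. Its log2 fold change of 0.03 had one of the narrower intervals of the 9 genes, from -0.34 to 0.39 (SE 0.16, adjusted p = 0.943 from edgeR).

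Srxn1 (ENSMUSG00000032802, chr2:152105516-152111376, plus strand), which encodes sulfiredoxin, had 38.6 and 35.0 CPM in WT and 44.4 and 47.2 CPM in the DDI2-KO libraries. Both of the latter were above both WT values. Its log2 fold change, 0.32, was the highest of the 9 genes (1.24-fold, SE 0.16, 95% interval -0.04 to 0.67, adjusted p = 0.259 from edgeR). It exceeded the log2 ratio between libraries of a group, which was -0.14 in WT and 0.09 in the DDI2-KO libraries, and lay between 0.25 and 0.39 when any 1 library was left out.

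Nqo1 (ENSMUSG00000003849, chr8:107388225-107403206, minus strand), the quinone reductase widely used as a readout of NRF2, was low in these livers, at 11.4 and 8.77 CPM in WT and 11.5 and 13.1 CPM in the DDI2-KO libraries. These were 271 to 383 reads per library. The groups did not overlap, but the higher WT library and the lower DDI2-KO library differed by less than 1 CPM, and the log2 ratio between the WT libraries, -0.38, was larger in size than the difference between groups. The log2 fold change was 0.28 (SE 0.21, 95% interval -0.19 to 0.76, adjusted p = 0.450 from edgeR) and lay between 0.11 and 0.49 when any 1 library was left out.

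Slc7a11 (ENSMUSG00000027737, chr3:49892526-50443614, minus strand), the light chain of the carrier that exchanges cystine for glutamate, was nearly absent from the counts. It had 2 and 0 reads in WT and 0 and 0 reads in the DDI2-KO libraries. At these depths a level of 3 reads corresponds to 0.0892 to 0.131 CPM, all 4 libraries were below it, and no fold change is given.

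**Figure D2:**
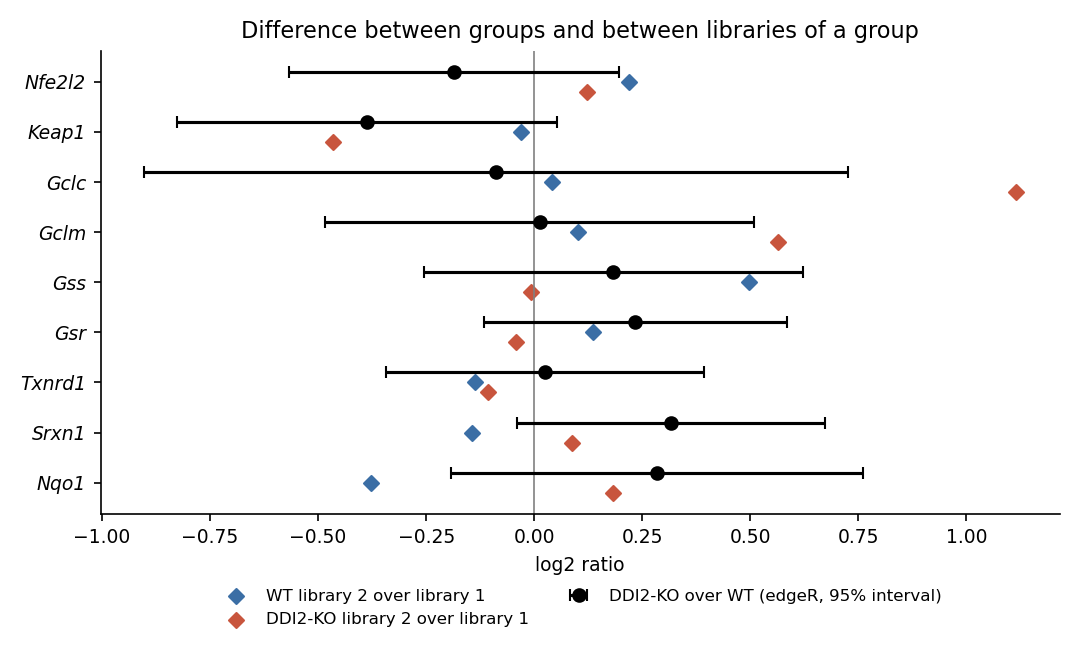
For each of the 9 tested genes, the log2 fold change between groups with its 95% interval from edgeR (black) beside the log2 ratio of library 2 over library 1 within WT (blue) and within the DDI2-KO libraries (red). All 9 intervals cross 0, and the red diamond of Gclc, at 1.11, lies outside every interval.

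The plot of group and replicate ratios sets the difference between genotypes against that between mice of one genotype. In Gsr and Srxn1 the difference between groups was larger than both differences within groups, and in the other 7 genes at least one difference within a group was larger.

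**Figure D3:**
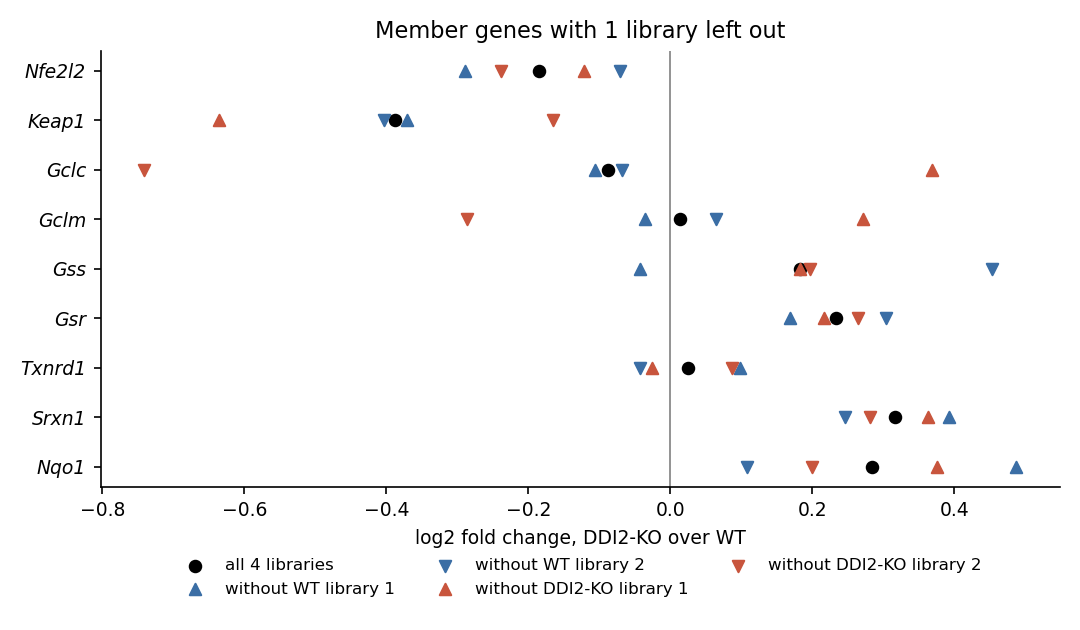
Log2 fold change of each of the 9 tested genes with all 4 libraries (black) and with 1 library left out (blue triangles without a WT library, red triangles without a DDI2-KO library). Gclc moves from -0.74 to 0.37, while Gsr, Srxn1 and Nqo1 stay above 0 and Nfe2l2 and Keap1 stay below 0.

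With each library left out in turn, 5 genes kept the sign of their log2 fold change, Nfe2l2 and Keap1 below 0 and Gsr, Srxn1 and Nqo1 above 0, and the same 5 kept it under the other settings tried. These are the 5 genes whose groups did not overlap, as in 55.7% of all tested genes. Groups that do not overlap largely fix the sign when a library is left out, so this says little more. Gclc, Gclm, Gss and Txnrd1 changed sign in at least one of these fits, as the plot of fits without a library shows. In no fit was any of the 9 genes called.

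The other genes of the pathway were read from the same fit. Among the 12 partner regulators, the transcription factors and adaptors that act with or against NRF2, 0 were called, with 6 log2 fold changes above 0 and 6 below and a median of -0.03. Bach1, a repressor that competes with NRF2 for its element, had 24.6 and 32.6 CPM in WT and 21.1 and 21.8 CPM in the DDI2-KO libraries, with a log2 difference of -0.41 (adjusted p = 0.222 by edgeR). For Rbx1, the ring subunit of the ligase that KEAP1 serves, it was 0.37 (adjusted p = 0.207). Nfe2l1 had 106 and 68.0 CPM in WT and 114 and 73.7 CPM in the DDI2-KO libraries, which overlapped almost fully (log2 fold change 0.11, adjusted p = 0.845).

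Among 26 further genes known as NRF2 targets in rodent liver, 0 were called. Of their log2 fold changes 14 lay above 0 and 12 below, and the median was 0.03. This list leaves out genes placed in the thioredoxin and NADPH lists. Those lists can hold NRF2 targets too and gave 2 calls each, so the 0 holds for these 26 genes only. The largest values were those of Gstp1, a glutathione transferase, at 27.2 and 30.9 CPM in WT and 46.0 and 58.4 CPM in the DDI2-KO libraries (log2 fold change 0.85, adjusted p = 0.0516 by edgeR), and of Ugt1a6a, at 14.6 and 17.6 CPM against 3.55 and 9.49 CPM (log2 fold change -1.31, adjusted p = 0.153). These 2 genes also share 62.3% and 38.9% of the 50-base stretches of their longest transcript with close relatives, so their reads may be divided among several genes. Gstp1 was called under 5 of the 14 alternative settings and Ugt1a6a under 3, in both cases with DESeq2 among them (adjusted p = 0.00599 and 0.0181). With a library left out, the log2 fold change ran from 0.67 to 1.01 for Gstp1 and from -2.17 to -0.76 for Ugt1a6a.

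The enzymes that use and break down glutathione gave 0 calls among the 18 tested of 21 listed, with 9 log2 fold changes above 0 and 9 below and a median of 0.06. Glrx5, a mitochondrial glutaredoxin of iron-sulfur cluster assembly, had 13.5 and 16.8 CPM in WT and 34.8 and 24.9 CPM in the DDI2-KO libraries (log2 fold change 0.98, adjusted p = 0.0556 by edgeR). It was called under 5 of the 14 alternative settings, DESeq2 among them (adjusted p = 0.00588), and ran from 0.72 to 1.21 with a library left out. Gpx3, a secreted glutathione peroxidase, had 7.56 and 5.92 CPM in WT and 3.75 and 3.57 CPM in the DDI2-KO libraries (log2 fold change -0.88, adjusted p = 0.0816 from edgeR). It was called under 1 of the 14 alternative settings, the edgeR fit without a filter on low counts (adjusted p = 0.0264).

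Of the 10 genes of cysteine supply, which include the methionine cycle, transsulfuration and cysteine breakdown, 1 was called. Csad, cysteine sulfinate decarboxylase of taurine synthesis, was higher in the DDI2-KO libraries, at 334 and 242 CPM against 106 and 141 CPM in WT (2.34-fold, log2 fold change 1.23, SE 0.23, adjusted p = 0.0417 from edgeR). It was not called without WT library 1 (adjusted p = 0.142) or without DDI2-KO library 1 (0.0634). Cdo1, the dioxygenase that makes the substrate of CSAD, had 1682 and 1454 CPM in WT and 2478 and 2754 CPM in the DDI2-KO libraries (log2 fold change 0.74, adjusted p = 0.0668 from edgeR). It was called under 3 of the 14 alternative settings, DESeq2 among them (adjusted p = 0.0048). Gnmt, which consumes methyl groups of S-adenosylmethionine, had a log2 fold change of -0.45 with overlapping groups (adjusted p = 0.490). The median log2 fold change of the 10 was 0.15, with 6 above 0 and 4 below, where 48.7% of all tested genes lay above 0.

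In the rest of the thioredoxin system, the peroxiredoxins Prdx3 and Prdx1 passed the test. Of the 18 genes listed, these 2 were called, both higher in the DDI2-KO libraries (11.1%, where 1.33% of all tested genes were called higher). Log2 fold changes were above 0 in 15 of the 18, where 48.7% of all tested genes lay above 0, and the median was 0.44. The 3 below 0 were Txn2, the mitochondrial thioredoxin, at -0.09 with overlapping groups, Txndc17 at -0.10 and Msrb1 at -0.11. The groups did not overlap in 13 of the 18, or 72.2%, 11 higher and 2 lower, where 55.7% of all tested genes did not overlap (28.0% higher and 27.7% lower).

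Prdx3, the mitochondrial peroxiredoxin, had 93.3 and 92.7 CPM in WT and 218 and 169 CPM in the DDI2-KO libraries, 2.08-fold higher (log2 fold change 1.06, SE 0.19, adjusted p = 0.0382 from edgeR). Prdx1, an abundant cytosolic peroxiredoxin, had 853 and 815 CPM in WT and 1396 and 1591 CPM in the DDI2-KO libraries, 1.79-fold higher (log2 fold change 0.84, SE 0.17, adjusted p = 0.0489). Both calls were close to the threshold. Of the 14 alternative settings, 11 called Prdx3 and 5 called Prdx1. With all 4 libraries, Prdx3 was not called without robust estimation (adjusted p = 0.052 from edgeR). Prdx1 was not called in that fit (0.0597), with upper-quartile factors (0.0562), at a mean of at least 1 CPM (0.0528), by limma-voom (0.0606) or by limma-trend (0.0644). Prdx3 was not called without WT library 1 (adjusted p = 0.122) or WT library 2 (0.0940), and Prdx1 was not called with any library left out (0.0611 to 0.139). Annotated pseudogenes and other genes hold 10.9% of the 50-base stretches of Prdx1 and none of those of Prdx3.

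The peroxiredoxins were set side by side after their values were seen. All 6, Prdx1 to Prdx6, had both libraries labelled DDI2-KO above both WT libraries, where 28.0% of all tested genes did so. Their log2 fold changes ran from 0.43 for Prdx5 to 1.06 for Prdx3. All 6 lay above 0 under each of the 14 alternative settings. This adds little, because groups that do not overlap largely keep their sign when a library is left out. Of Prdx4, the peroxiredoxin of the endoplasmic reticulum, the values were 77.8 and 80.9 CPM in WT and 125 and 129 CPM in the DDI2-KO libraries (log2 fold change 0.68, adjusted p = 0.0619 from edgeR). Txnip, which binds and inhibits thioredoxin, had 107 and 119 CPM in WT and 183 and 187 CPM in the DDI2-KO libraries (log2 fold change 0.72, adjusted p = 0.0618). Txn1, the cytosolic thioredoxin, and Txnrd2, the mitochondrial thioredoxin reductase, were also added after their values were seen. Txn1 had 106 and 92.4 CPM in WT and 138 and 171 CPM in the DDI2-KO libraries (log2 fold change 0.64, adjusted p = 0.0921 by edgeR). Txnrd2 had 27.7 and 27.5 CPM in WT and 42.2 and 43.4 CPM in the DDI2-KO libraries (log2 fold change 0.64, adjusted p = 0.0664). The groups were apart in each gene, and neither gene was called in the main fit. Under the 14 alternative settings Txn1 was called in 2, and Txnrd2, Txnip and Prdx4 were called in 3 each. Whether these genes differ from Srxn1 and Txnrd1 in their change was not tested.

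**Figure D4:**
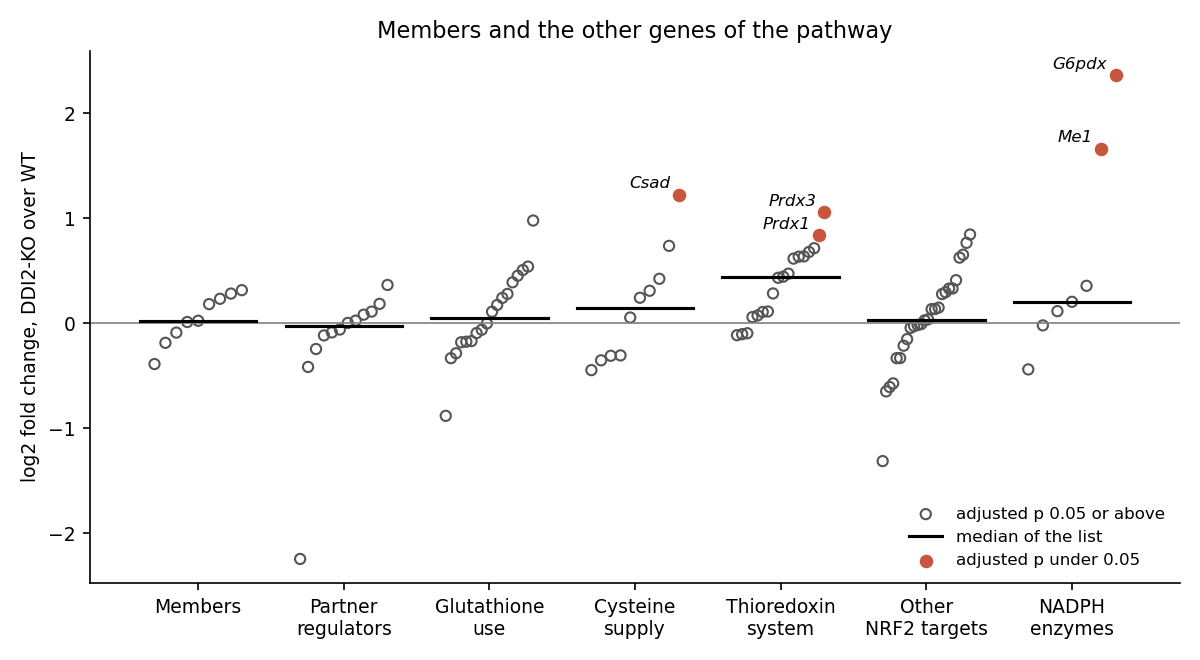
Log2 fold change (DDI2-KO over WT) of each tested gene of the NRF2 pathway, from edgeR, by list, with the median of each list as a bar. Filled red points passed an adjusted p of 0.05: Csad, Prdx3, Prdx1, G6pdx and Me1. The 9 NRF2, glutathione and thioredoxin genes of the first column lie between -0.39 and 0.32.

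The enzymes that make NADPH, on which GSR, TXNRD1 and NQO1 depend, gave 2 calls among 7 genes, as the plot of lists shows: G6pdx, the first enzyme of the pentose phosphate pathway, at 9.81 and 14.2 CPM in WT and 67.5 and 56.5 CPM in the DDI2-KO libraries (log2 fold change 2.37, adjusted p = 0.00942 by edgeR), and Me1, the cytosolic malic enzyme, at 75.2 and 77.9 CPM against 239 and 246 CPM (log2 fold change 1.66, adjusted p = 0.0103). Both were called under all 14 alternative settings, and 7.65% and 26.5% of their 50-base stretches occur in other genes. Idh1 (0.36, adjusted p = 0.242) and Pgls (-0.44, adjusted p = 0.306) did not pass the test. The median of the 7 was 0.21, with 5 above 0 and 2 below, where 48.7% of all tested genes lay above 0. The 2 calls, both higher in the DDI2-KO libraries, were 28.6% of the list, where 1.33% of all tested genes were called higher.

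Markers of the cells that a liver sample holds were summed for each library. Kupffer cell markers (7 genes) came to 596 to 690 CPM in WT and 723 to 846 CPM in the DDI2-KO libraries, and biliary markers (6 genes) to 53.1 to 56.5 and 68.8 to 70.5 CPM. Stellate cell markers (7 genes) came to 460 to 485 CPM in WT and 429 to 450.1 CPM, and markers of hepatocytes near the portal vein (8 genes) to 4147 to 5142 and 3316 to 4127 CPM. Markers of hepatocytes near the central vein (10 genes, 7024 to 11990 and 9698 to 11370 CPM) and of sinusoidal endothelium (7 genes, 406 to 446 and 386 to 419 CPM) overlapped between the groups. By gene, 8 of the 10 central vein markers had a log2 fold change above 0 and 2 below (median 0.34). Near the portal vein, 7 of the 8 markers lay below 0 and 1 above (median -0.36). Of the 7 endothelial genes, 3 had a log2 fold change above 0 and 4 below, with a median of -0.04. Within this list 1 gene was called, Stab2, a scavenger receptor of the sinusoids, which was lower in the DDI2-KO libraries, at 73.7 and 61.2 CPM in WT against 32.9 and 29.9 CPM (log2 fold change -1.10, adjusted p = 0.0288 by edgeR). It was called under 13 of the 14 alternative settings, but not without WT library 1 (adjusted p = 0.109). No gene of the other marker lists was called. Neutrophil markers (5 genes) were near 0, at 2.05 to 2.49 and 2.52 to 3.09 CPM, with Ly6g at 0 reads and Mpo at no more than 3 in any library. The part of these cells in the values of the pathway was not tested.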

How the data were processed

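Liver RNA of 2 WT and 2 DDI2-KO mice was sequenced from stranded mRNA libraries. The deposited values are counts of reads per Ensembl gene that the authors left unnormalized. The submitters' processing notes name cutadapt 1.8, STAR 2.5.2b, HTSeq 0.6.1 and GRCm38. The annotation release and the strand setting are not given in the sources used here. The 5 summary rows of each file (35.3 to 42.3% of the total of all rows, mostly reads aligned to several places) were left out. Symbols, coordinates and exon lengths came from GENCODE (GRCm38), where 48349 of the 48709 identifiers were found, and promoter windows from RefSeq.

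Genotypes were compared in edgeR 4.0.16 (R 4.3.3) with TMM scaling, filterByExpr, robust glmQLFit and glmQLFTest, without a replicate block, and p-values were adjusted by Benjamini-Hochberg over the 13699 tested genes. CPM are counts relative to the TMM-scaled library size. Intervals use the moderated degrees of freedom. The script was tested on simulated data. The study's methods name limma, so limma 3.58.1 (voom, and trend with a prior count of 2) and DESeq2 1.42.0 were alternatives, as were RLE and upper-quartile factors, library totals, a replicate block, leaving out each library, no filter on low counts, a filter at a mean of 1 CPM, and a fit that was not robust.

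Named were the 10 genes, Ddi2, Nfe2l1, every gene of a pathway list with an adjusted p under 0.05, and the 2 others of each pathway list with the largest log2 fold change in size at a mean of at least 1 CPM. Malat1, Neat1, Stab2, Txn1, Txnrd2, Txn2, Txndc17, Msrb1, Gsta2, Acss2, Bhmt, Nfe2l3 and the peroxiredoxins beyond this rule were added after their values were seen. The 10 genes and the lists were chosen with earlier results of these data known. To check for a library deposited in duplicate, the counts within a group were compared with counting noise, which they exceeded (chi-square over its degrees of freedom, 69.7 for WT and 37.4 for DDI2-KO).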

Additional observations from a re-analysis of the deposited data

How the results depend on the processing

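Each genotype has 2 mice, and at these depths 3 reads are 0.0892 to 0.131 CPM. Of the 9 tested pathway genes 0 were called under any of the 14 alternatives. Over all genes the count of calls, 346, was 362 with RLE factors, 317 with upper-quartile factors (126 higher and 191 lower), 378 with library totals (230 higher and 148 lower), 932 with DESeq2, 136 with limma-voom, 139 with limma-trend, 1544 without a filter, 285 at a mean of at least 1 CPM, 152 without robust estimation and 153 to 631 with a library left out (153 without WT library 1, 203 without WT library 2, 631 without DDI2-KO library 2). The median log2 fold change of the 9 genes, 0.03, was -0.028 with upper-quartile factors, 0.073 with library totals and -0.035 to 0.22 with a library left out. The causes were not tested.

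The signs of 4 of the 9 genes turned under some alternative, and none of these 4 passed the test. Gclm, at 0.01, was -0.041 with upper-quartile factors, -0.012 with limma-voom, -0.013 with limma-trend, -0.0056 at a mean of at least 1 CPM and between -0.29 and 0.27 with a library left out (-0.035 without WT library 1, -0.29 without DDI2-KO library 2). Txnrd1, at 0.03, was -0.028 with upper-quartile factors and -0.042 to 0.10 with a library left out (-0.042 without WT library 2, -0.026 without DDI2-KO library 1). Gss, at 0.18, was -0.042 to 0.45 (-0.042 without WT library 1) and Gclc, at -0.09, was -0.74 to 0.37 (0.37 without DDI2-KO library 1).

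Among the lists, calls of the thioredoxin system, 2, became 1 with upper-quartile factors, limma-voom, limma-trend or a mean of at least 1 CPM, 0 without robust estimation, 6 with DESeq2 and 6 without a filter, and 0 to 1 with a library left out. The 1 call of cysteine supply became 0 with limma-voom, limma-trend or no robust estimation, 2 with DESeq2 and 2 without a filter, and 0 to 1 with a library left out. Glutathione use, at 0, gave 1 with library totals, 1 with DESeq2, 2 without a filter and 0 to 1 with a library left out. The further NRF2 targets, at 0, gave 1 with library totals, 5 with DESeq2, 4 without a filter and 0 to 1 with a library left out. One such call was Gsta2, whose log2 fold change of -0.61 was -1.33 without WT library 1 (adjusted p = 0.0365) and 0.92 without WT library 2 (adjusted p = 0.176). The partner regulators gave 0 to 1 with a library left out, and the NADPH enzymes 2 throughout.

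The replicate numbers are shared by WT and DDI2-KO, but nothing in the labels pairs the mice, and deviations of same-numbered libraries from their group means had a correlation of 0.0465 across 13699 genes, which are not independent replicates. With the replicate block 1108 genes were called, 0 of the 9 pathway genes, 5 of the thioredoxin system, 2 of cysteine supply, 1 of glutathione use and 5 of the further NRF2 targets, and Gclm was at -0.013.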

Other observations

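Nfe2l3, which encodes NRF3, a relative of NRF1 and NRF2, was singled out after its values were seen. It had 12 and 80 reads in WT and 10 and 5 reads in the DDI2-KO libraries, so the fitted log2 difference, -2.24 (adjusted p = 0.244 by edgeR), rested on WT library 2. Without that library it was -0.23 (adjusted p = 0.938), and without WT library 1 it was -3.06 and passed the test (adjusted p = 0.0289). The plot of pathway lists shows it as the lowest point.

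Bhmt, which remethylates homocysteine, varied between mice of both genotypes. It had 1484 and 905 CPM in WT and 1423 and 506 CPM in the DDI2-KO libraries, and in each group library 2 was the lower, the reverse of Gclc in the DDI2-KO libraries.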
